A study of Mus musculus with 7 samples.

Results

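The oligodendrocyte lineage was followed here through 9 genes, namely *Olig1*, *Olig2*, *Sox10*, *Pdgfra* and *Cspg4*, which mark precursor cells, and *Mbp*, *Mag*, *Cnp* and *Mog*, which encode proteins of myelin. The array carried 23 probe sets annotated to 1 of these genes only, out of 45101 in the table. A probe set is a group of short probes that read 1 stretch of a transcript. Probe sets with _x in their names, which may cross-hybridize, were left out, as were those under an intensity of 50 on all 7 arrays. These rules removed 4 and 2 of the 23 and left 17 probe sets of 8 genes, among 22748 tested probe sets, of which those with 1 named gene covered 12315 genes. *Mog* had no tested probe set.

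All samples were primary neuron cultures from the cortex of E16 embryos of C57/Bl6J mice, harvested at 16 days in vitro. The luciferase group (4 arrays, replicates 1 to 4) had received a lentivirus with a hairpin against luciferase, an enzyme that mouse cells lack, for 2 weeks. The blank group (3 arrays, replicates 5 to 7) was naïve, that is, not transduced, and 1 further blank sample had been left out by the authors after quality control. The study used the luciferase group as the control for hairpins against autism genes. The luciferase and blank comparison, which the study also made, asks what the virus and its hairpin together do to these cultures. A short text in the labels of the blank samples mentions hairpin treatment, so the group was taken from the treatment field. The methods describe replicate cultures but the labels do not tie arrays to litters or plates, so p-values measure the spread between these samples.

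Oligodendrocyte precursor cells arise from progenitors that express the transcription factors Olig1 and Olig2, and Sox10 then holds cells in the lineage and switches on myelin genes. Precursors divide in response to platelet-derived growth factor through its receptor Pdgfra and carry the proteoglycan NG2, the product of *Cspg4*. As they leave the cell cycle they pass through a short committed stage and then make myelin proteins, with Cnp and Mbp appearing before Mog, a late surface protein of mature myelin. Cortical neuron cultures keep some of these glia beside the neurons. In RNA from such a mixed culture, fewer cells of a type and less RNA per cell cannot be told apart.

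To place the myelin members in the genome, windows of 250 bases before and 50 after a transcript start were taken from RefSeq (GRCm38.p6). For *Mag* and *Mog* this start is the 5′ end of the gene in that annotation, and for *Cnp* it is not. Of the 9 members 6 were found in that promoter table. The 3 found on the myelin side are shown. Among the luciferase arrays, *Cnp* and *Mag* were lowest on replicate 4, as were probe sets of *Sox10* and *Pdgfra* from the precursor side. *Mog* stayed below the intensity limit on all arrays. Capitals mark ACAAAG, a core motif of SOX factors, on either strand (CTTTGT on the other).
*Mag*, chr7:30914873-30915172, minus strand: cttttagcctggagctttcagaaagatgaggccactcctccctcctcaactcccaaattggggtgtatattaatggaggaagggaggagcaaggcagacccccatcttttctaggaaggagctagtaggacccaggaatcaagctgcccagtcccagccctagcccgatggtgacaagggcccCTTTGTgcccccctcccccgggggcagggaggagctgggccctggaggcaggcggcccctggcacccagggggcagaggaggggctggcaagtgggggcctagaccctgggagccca
*Cnp*, chr11:100574689-100574988, plus strand: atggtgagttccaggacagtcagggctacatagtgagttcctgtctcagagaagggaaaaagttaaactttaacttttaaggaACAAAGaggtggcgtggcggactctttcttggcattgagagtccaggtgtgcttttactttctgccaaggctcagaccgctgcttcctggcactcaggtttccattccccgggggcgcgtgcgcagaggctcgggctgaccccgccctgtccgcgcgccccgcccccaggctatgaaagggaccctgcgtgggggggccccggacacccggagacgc
*Mog*, chr17:37023349-37023648, minus strand: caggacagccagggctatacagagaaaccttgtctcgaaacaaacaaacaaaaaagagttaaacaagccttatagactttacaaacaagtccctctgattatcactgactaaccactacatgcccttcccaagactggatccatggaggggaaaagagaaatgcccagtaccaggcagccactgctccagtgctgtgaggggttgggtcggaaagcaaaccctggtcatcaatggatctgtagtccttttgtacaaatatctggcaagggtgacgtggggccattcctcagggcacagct
The *Mag* match began at position -67 and the *Cnp* match at -167 from the start used for its window, and the *Mog* window held neither ACAAAG nor the related ACAATG. Among the windows found but not shown, that of *Olig2* held ACAATG at -68, and those of *Pdgfra* and *Cspg4* held neither. Of 27025 promoters of this length, 18.7% held ACAAAG, 12.8% held ACAATG and 28.8% held either, on either strand. A match describes the letters of the window and is no measurement of binding.

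Blank replicate 7 stood apart most, with an SD of 0.254 on the log2 scale between it and the other blank arrays over all tested probe sets, against 0.136 to 0.188 for every other array and the rest of its group. The 4 member calls given next passed without it as well.

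Most member probe sets did not pass the test between luciferase and blank neurons. Of the 17 probe sets, 2 were higher in luciferase neurons, both of *Mbp*, and 2 were lower, 1 of *Sox10* and the only 1 of *Mag*. These 4 are 23.5% of the members' probe sets, where 24.5% of all tested probe sets passed the adjusted p of 0.05, so the members passed about as often as the array as a whole. By direction, 16.2% of all tested probe sets were higher and 8.26% were lower. Only 1 member probe set, of *Mbp*, was also higher by at least 1.5-fold, as were 2.9% of all tested probe sets. The arrays of the groups did not overlap for 4 of the 17, as for 34.8% of all tested. The other 13 had adjusted p between 0.205 and 0.88. The median log2 change, luciferase minus blank, was -0.09 over the 17 and 0.06 over all tested probe sets.

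**Figure D1:**
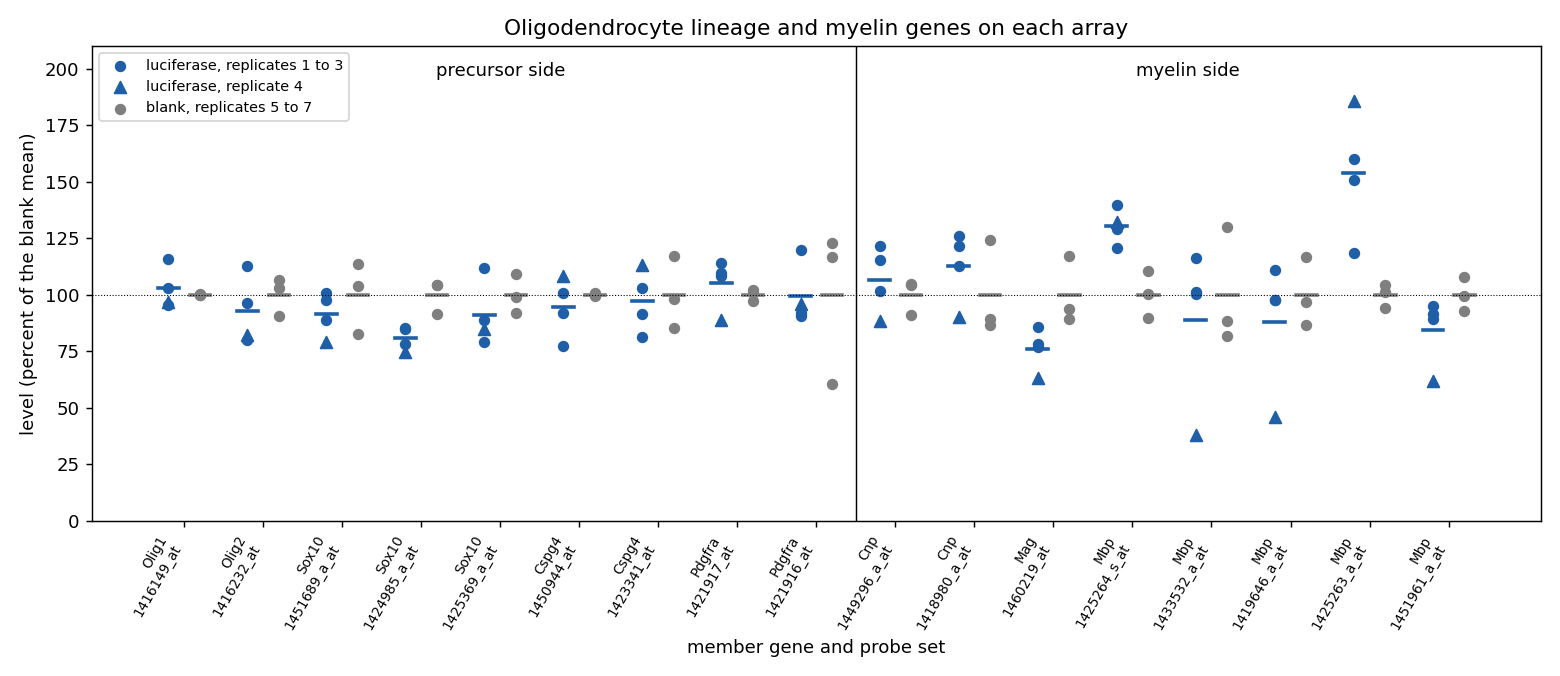
Level of each of the 17 member probe sets on each array, as a percentage of its blank mean, with luciferase arrays in blue (replicate 4 as a triangle), blank arrays in grey and short lines at the group means. Only *Sox10* 1424985_a_at, *Mag* and the *Mbp* probe sets 1425264_s_at and 1425263_a_at have groups that do not overlap, and 3 *Mbp* probe sets have replicate 4 far below the other luciferase arrays.

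Of the 3 lineage transcription factors, only *Sox10* had a call. *Olig1*, a helix-loop-helix factor of the lineage, had intensities of 3304, 2724, 2940.4 and 2759.8 on the luciferase arrays, against 2845, 2855 and 2852 on the blank arrays. The blank arrays lay close together, and the luciferase arrays spread to both sides of them. The log2 change was 0.04, with a 95% interval from -0.15 to 0.22 (limma, adjusted p = 0.774). *Olig2*, its relative that specifies the lineage, had 1148, 812, 979.9 and 837 on the luciferase arrays, against 921, 1082 and 1048 on the blank arrays. The highest and the lowest *Olig2* values were both on luciferase arrays, and the change of -0.12 (interval -0.40 to 0.16) did not pass the test (limma, adjusted p = 0.513).

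*Sox10*, the factor that drives myelin genes, was read by 3 probe sets, of which 1 was lower in luciferase neurons. That probe set, 1424985_a_at, had 106.0, 114.9, 115.6 and 101.1 on the luciferase arrays, against 141.3, 141.2 and 124.0 on the blank arrays. The groups did not overlap, with luciferase lower. Its mean was 109.4 ± 7.03 in luciferase neurons (SD, n = 4) and 135.5 ± 9.98 in blank neurons (SD, n = 3), which gives -0.31 on the log2 scale (standard error 0.08, limma, adjusted p = 0.0277). The call was lost in 5 of 15 other settings, among them leaving out luciferase replicate 1 (adjusted p = 0.0662), luciferase replicate 4 (0.0653), blank replicate 5 (0.0944) or blank replicate 6 (0.0899).

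The other *Sox10* probe sets had overlapping groups. Probe set 1451689_a_at had 361, 397, 408 and 321 on the luciferase arrays, against 461, 422 and 335 on the blank arrays, with a log2 change of -0.12 (interval -0.40 to 0.16, limma, adjusted p = 0.502). Probe set 1425369_a_at, near the intensity limit, had 44.4, 62.7, 49.7 and 47.6 on the luciferase arrays, against 55.4, 51.6 and 61.2 on the blank arrays, with a log2 change of -0.14 (interval -0.41 to 0.13, limma, adjusted p = 0.412). The estimate was negative for all 3 probe sets, and the intervals of these last ones hold both 0 and the value of the first.

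The surface proteins of precursors showed no call in either direction. The *Pdgfra* probe set 1421917_at had 1855, 1780.1, 1764 and 1445 on the luciferase arrays, against 1582, 1662 and 1636 on the blank arrays. Luciferase replicates 1 to 3 lay above all blank arrays and replicate 4 lay below them, and the change was 0.07 (interval -0.15 to 0.28, limma, adjusted p = 0.63). Probe set 1421916_at ranged from 124.1 to 163.8 on the luciferase arrays and from 82.9 to 167.8 on the blank arrays, with the low end set by blank replicate 7 (limma, adjusted p = 0.88). Probe set 1438946_at stayed between 27.42 and 40.05 on all arrays and was not tested.

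*Cspg4*, the NG2 proteoglycan that pericytes also carry, was read by 2 probe sets. Probe set 1450944_at had 174.5, 207.9, 228.0 and 244.9 on the luciferase arrays, against 228.3, 225.7 and 225.2 on the blank arrays, with a log2 change of -0.09 (interval -0.34 to 0.15, limma, adjusted p = 0.56). The blank arrays were close together while the luciferase arrays ran to both sides, with replicate 1 lowest and replicate 4 highest. Probe set 1423341_at ran in the same order over the luciferase arrays, with 144.8, 163.2, 183.5 and 201.7, against 174.4, 151.8 and 208.3 on the blank arrays (log2 change -0.04, interval -0.34 to 0.26, limma, adjusted p = 0.853).

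*Mbp*, which encodes the myelin basic protein that compacts the sheath, was the member with the most probe sets, and they disagreed. Its locus also makes Golli transcripts, which neurons and other cells use, and which transcripts each probe set reads was not examined. Of its 5 tested probe sets 2 were higher in luciferase neurons and 3 had lower estimates that did not pass the test. The largest rise among the members was that of 1425263_a_at, with 219.2, 162.6, 206.6 and 254.3 on the luciferase arrays, against 138.9, 143.2 and 129.2 on the blank arrays. All luciferase arrays stood above all blank arrays, with means of 210.7 ± 37.9 in luciferase neurons (SD, n = 4) and 137.1 ± 7.14 in blank neurons (SD, n = 3). The rise was 1.52-fold, or 0.60 on the log2 scale (standard error 0.13, limma, adjusted p = 0.0127), and it passed in all 15 other settings, with adjusted p from 0.00376 to 0.0373. The log2 change ranged from 0.506 to 0.721 in these settings. It was under 1.5-fold in some of them, such as 0.506 without luciferase replicate 4 and 0.507 with centred arrays.

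The second, 1425264_s_at, whose suffix marks probes that may read transcripts of more than 1 gene, had 507, 586, 542 and 554 on the luciferase arrays, against 420.0, 376 and 462 on the blank arrays. Again the groups did not overlap. The mean was 547 ± 33.0 in luciferase neurons (SD, n = 4) and 419 ± 43.4 in blank neurons (SD, n = 3), or 1.31-fold higher (log2 change 0.39, limma, adjusted p = 0.0154). Without blank replicate 6 the adjusted p was 0.056.

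The 3 remaining *Mbp* probe sets gave another picture. Probe set 1433532_a_at had 502, 583, 507 and 189.3 on the luciferase arrays, against 442, 409 and 651 on the blank arrays. Probe set 1419646_a_at had 311, 353, 311 and 146.6 on the luciferase arrays, against 308, 276 and 371 on the blank arrays. In both, replicates 1 to 3 of luciferase lay inside the blank range while replicate 4 lay far below it, and blank replicate 7 was highest of all. Their log2 changes were -0.26 (interval -1.04 to 0.53, limma, adjusted p = 0.613) and -0.25 (interval -0.85 to 0.35, limma, adjusted p = 0.519), and without luciferase replicate 4 they were 0.11 and 0.04. Probe set 1451961_a_at had 102.2, 98.7, 95.9 and 66.8 on the luciferase arrays, against 116.0, 99.9 and 107.2 on the blank arrays (log2 change -0.26, interval -0.58 to 0.06, limma, adjusted p = 0.205, and -0.12 without luciferase replicate 4). The 3 *Mbp* probe sets with _x names, outside the rule, had the same low array, and with them kept in the fit none passed (log2 changes -0.43, -0.42 and -0.28, limma, adjusted p = 0.403, 0.314 and 0.526).

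*Cnp*, a membrane-bound phosphodiesterase made early in the differentiation of oligodendrocytes, did not pass the test with either probe set. Probe set 1418980_a_at had 215.6, 192.7, 207.4 and 154.0 on the luciferase arrays, against 148.0, 152.9 and 211.9 on the blank arrays (log2 change 0.18, interval -0.16 to 0.52, limma, adjusted p = 0.41). Luciferase replicates 1 to 3 lay with blank replicate 7, and luciferase replicate 4 lay with blank replicates 5 and 6. Probe set 1449296_a_at had 255.7, 243.2, 213.9 and 185.8 on the luciferase arrays, against 220.8, 219.8 and 191.6 on the blank arrays (log2 change 0.08, interval -0.18 to 0.34, limma, adjusted p = 0.62).

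*Mag*, an adhesion protein of the myelin membrane next to the axon, was near the intensity limit. It had 49.1, 44.7, 44.1 and 36.3 on the luciferase arrays, against 51.3, 67.1 and 53.7 on the blank arrays, so that all luciferase arrays lay below 50 and below all blank arrays. It was lower in luciferase neurons (log2 change -0.40, standard error 0.12, limma, adjusted p = 0.0447). All luciferase values lay under the limit of 50 and all blank values above it. The probe set was thus tested only because of the blank group, so neither the call nor the size of this difference is well determined. The call was lost in 8 of 14 other settings, with adjusted p between 0.053 and 0.153 without luciferase replicate 2, 3 or 4 or blank replicate 5 or 6. With no filter on level the adjusted p was 0.0616 (limma). *Mog* was at 7.64, 8.0, 7.19 and 8.16 on the luciferase arrays, against 7.16, 8.5 and 7.73 on the blank arrays, far under the limit on all of them.

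**Figure D2:**
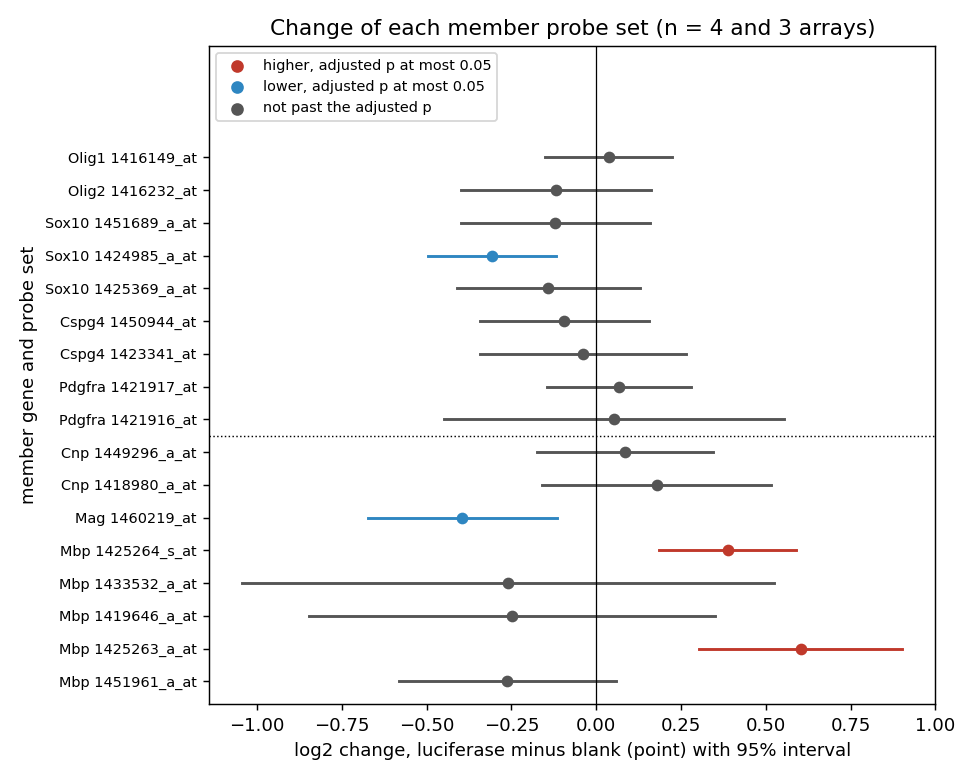
Log2 change of each member probe set, luciferase minus blank, with its 95% interval from limma (4 and 3 arrays) and the precursor members above the dotted line. The 2 *Mbp* probe sets that passed lie right of 0 at 0.39 and 0.60, *Sox10* 1424985_a_at and *Mag* lie left of 0 at -0.31 and -0.40, and the other 13 intervals hold 0.

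The precursor and myelin members were then set against each other on each array. For this, each gene was given the mean of its tested probe sets as a log2 deviation from the blank mean, and genes were averaged. The precursor side includes the lineage factors, among them *Sox10*, which drives myelin genes, so it does not rest on precursor markers alone. On the precursor side (5 genes) the luciferase arrays stood at 0.01, -0.10, -0.02 and -0.12, against 0.02, 0.03 and -0.05 on the blank arrays. On the myelin side (3 genes) they stood at 0.09, 0.02, -0.01 and -0.39, against -0.07, 0.02 and 0.05 on the blank arrays. The luciferase mean was thus -0.06 ± 0.06 for precursor genes and -0.07 ± 0.22 for myelin genes (SD, n = 4). The myelin mean was positive without luciferase replicate 4 (0.033), with the brightest probe set of each gene (0.025) and with a limit of 100 (0.088). In every other setting it was negative, such as -0.169 with centred arrays and -0.001 with array weights.

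The difference, precursor minus myelin, was -0.09, -0.12, -0.001 and 0.28 on the luciferase arrays, against 0.09, 0.01 and -0.10 on the blank arrays. Replicates 1 to 3 of luciferase lay between -0.12 and -0.001, close to the blank range, and replicate 4 lay above every other array. The luciferase mean of this difference was 0.02 ± 0.18 (SD, n = 4) with all arrays. It was near 0 and its sign was not settled, being -0.069 without luciferase replicate 4, -0.033 without blank replicate 7, -0.066 with array weights, -0.071 with the brightest probe set of each gene and -0.148 with a limit of 100, which leaves *Mag* out. With the 2 *Mbp* probe sets past the adjusted p left out, an alternative added after their values were seen, the myelin side of replicate 4 stood at -0.62 and the luciferase mean of the difference was 0.12. No p was computed for these means, since the members were chosen with results of these arrays known.

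**Figure D3:**
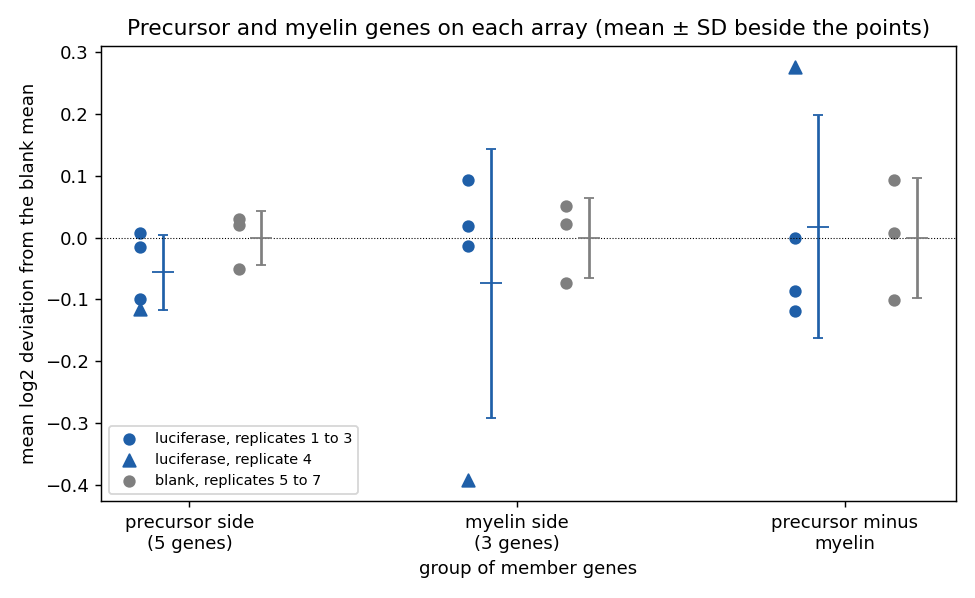
Mean log2 deviation from the blank mean on each array for the 5 precursor genes, the 3 myelin genes and their difference, with luciferase left of blank and the mean ± SD beside the points. Luciferase replicate 4 stands at -0.39 on the myelin side and at 0.28 in the difference, outside the range of all other arrays in both.

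Luciferase replicate 4 was looked at further after these values were seen, so what follows is a description. For *Mbp* 1433532_a_at its intensity was 35.7% of the geometric mean of the other luciferase arrays, and for 1419646_a_at it was 45.2%. Ranked over the 22748 tested probe sets by this ratio, they were number 2 and number 6 from the lowest. *Gpr17*, a receptor of committed precursors about to differentiate, was number 3 with 310.3, 340.5, 304.4 and 115.2 on the luciferase arrays, against 336.3, 322.9 and 418.9 on the blank arrays. *Bcas1*, a protein of early myelinating oligodendrocytes, was number 4 with 446.2, 495.0, 484.3 and 178.8 on the luciferase arrays, against 490.9, 470.0 and 566.8 on the blank arrays. Numbers 1 and 5 have no gene named here. The next named ones, at numbers 7, 8, 10 and 12, were *Trim35*, *Rps24*, *Lin7b* and *Rarb*, which are not in the lists of the lineage.

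The other members stood less far from the other luciferase arrays. It stood at 67.5% of the other luciferase arrays for *Mbp* 1451961_a_at, at 75.1% and 78.4% for the *Cnp* probe sets, at 79.0% for *Mag* and at 80.3% and 95.9% for *Pdgfra* 1421917_at and 1421916_at. It stood at 82.8%, 90.2% and 92.1% for *Sox10*, at 86.2% for *Olig2* and at 92.6% for *Olig1*. The *Cspg4* probe sets went the other way, at 121.1% and 123.7%, as did the 2 *Mbp* probe sets past the adjusted p, at 101.8% and 130.7%. Of the 8 myelin probe sets tested, 5 had replicate 4 as the lowest of all 7 arrays, and of the 9 precursor probe sets 3 did, where 12.1% of all tested probe sets did. Several of these probe sets read the same gene, *Mbp* or *Sox10*, so the counts are not of independent readings.

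Few probe sets stood that low on this array, and it was not the array that deviated most. Its median intensity over the tested probe sets was 241.4, against 237.4 to 241.3 on the other luciferase arrays, and 6 of 22748 probe sets stood more than 1 below the other luciferase arrays on the log2 scale. Counted in the same way there were 8, 7 and 2 on luciferase replicates 1 to 3, and 0, 5 and 34 on blank replicates 5 to 7. In the same array the cycle genes *Mki67* (461.6, against 268.7 to 336.0 on the other luciferase arrays) and *Top2a* (425.6, against 301.6 to 331.9) were high, as was *Dcn*, a matrix protein of meningeal fibroblasts (540.2, against 346.9 to 413.5). Other markers of the pericyte, vascular and meningeal list did not go one way on this array, with log2 differences from the other luciferase arrays of 0.32 for *Lum*, 0.0 for *Rgs5*, -0.13 for *Pdgfrb* and -0.16 for *Col1a2*. The part of these cells in the drop was not tested.

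**Figure D4:**
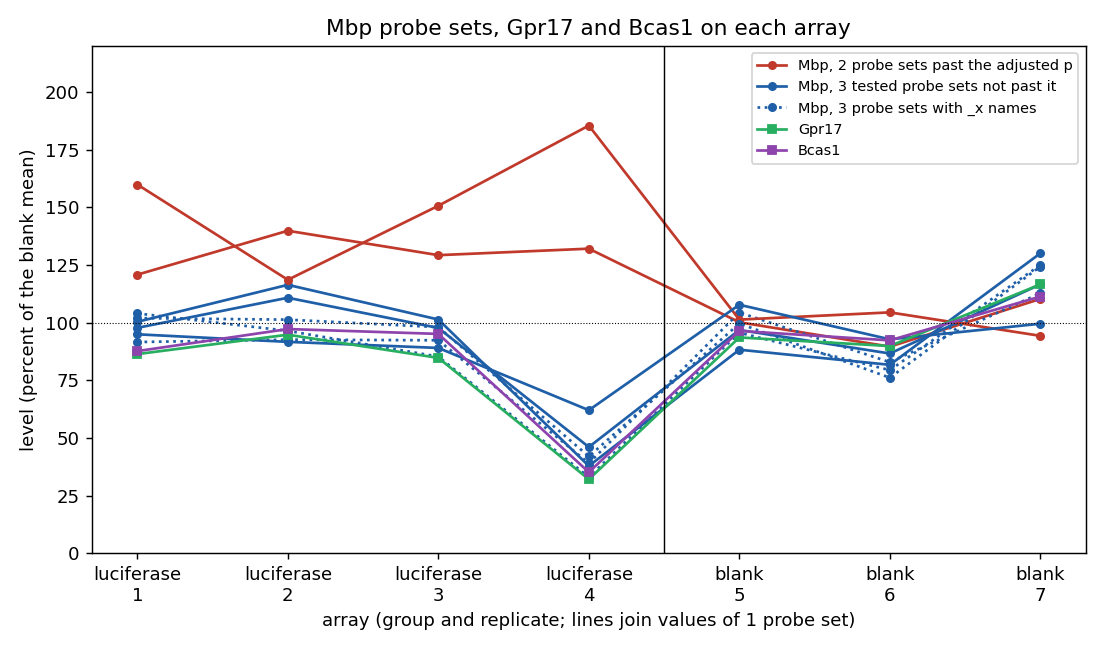
Level of the 8 *Mbp* probe sets, *Gpr17* and *Bcas1* on each array as a percentage of the blank mean, luciferase replicates 1 to 4 left of blank replicates 5 to 7. 6 *Mbp* probe sets, *Gpr17* and *Bcas1* fall together on luciferase replicate 4, while the 2 *Mbp* probe sets past the adjusted p stay above the blank mean on all luciferase arrays.

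Around the members, 87 other genes of the lineage in 5 lists were annotated on the array, of which 65 could be tested with their brightest probe set. Of these, 14 were higher in luciferase neurons, 6 were lower and 45 did not pass, with a median log2 change of 0.07 beside 0.06 over all tested probe sets. The higher genes are 21.5% and the lower ones 9.23% of the 65, beside 16.2% and 8.26% of all tested probe sets. All 20 kept their direction in the settings that tested them, and 12 kept the call in each of these.

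Other precursor genes were called in both directions, with 12.5% of those tested higher and 12.5% lower, beside 16.2% and 8.26% of all tested probe sets. Of 16 tested, 2 were higher, the chondroitin sulfate proteoglycans *Vcan* (248.7 ± 27.4 in luciferase neurons and 182.1 ± 12.04 in blank neurons, SD, n = 4 and 3, log2 change 0.45, limma, adjusted p = 0.0122) and *Bcan* (log2 change 0.39, limma, adjusted p = 0.026), which astrocytes also make. The *Vcan* probe set 1427257_at did not pass (log2 change 0.01, limma, adjusted p = 0.94). The 2 lower ones were the secreted C1q-like protein *C1ql1* (53.9 ± 2.26 in luciferase neurons and 65.5 ± 2.46 in blank neurons, SD, n = 4 and 3, log2 change -0.28, limma, adjusted p = 0.0208) and the matrix protein *Matn4*, whose luciferase arrays were all under 50. *Matn4* was thus tested only because of the blank group, where it was higher. Neither its call nor its part in the share of lower genes is well determined. The *Bcan* call was lost without luciferase replicate 1, 2 or 3 or blank replicate 5 or 6 and with centred arrays (highest adjusted p = 0.0943), that of *C1ql1* without luciferase replicate 4 or blank replicate 5 or 6 and with a trended, robust fit (highest 0.0693) and that of *Matn4* without blank replicate 6 (0.0656).

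Of 12 factors tested that drive or brake differentiation, 3 were higher in luciferase neurons and 1 was lower. These are 25% and 8.33%, beside 16.2% and 8.26% of all tested probe sets. *Id4*, an inhibitor of helix-loop-helix factors that holds precursors back, had 2249.8, 1841, 1827 and 1932 on the luciferase arrays, against 1054, 1138 and 972 on the blank arrays. The groups were far apart, with a log2 change of 0.89 (standard error 0.10, limma, adjusted p = 0.000598), and both other *Id4* probe sets were higher too (0.49 and 0.68, adjusted p = 0.0273 and 0.00349). *Hes5*, a Notch target, was higher by 0.50 (limma, adjusted p = 0.0121), as was *Yy1*, a factor needed for differentiation, by 0.32 (limma, adjusted p = 0.0172, and 0.0635 without blank replicate 6). The other 3 *Yy1* probe sets did not pass (0.22, 0.13 and 0.11, adjusted p = 0.126, 0.213 and 0.367). *Zfp536*, a zinc finger protein, was lower (log2 change -0.51, limma, adjusted p = 0.00939). *Myrf*, the master regulator of myelin genes, had 86.1, 85.0, 93.5 and 67.0 on the luciferase arrays, against 96.6, 91.4 and 99.1 on the blank arrays, and did not pass (log2 change -0.22, limma, adjusted p = 0.177).

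Some genes of mature oligodendrocytes were, like *Mog*, below 50 on all arrays. This held for 14 of 28 annotated genes of myelin and differentiated cells, among them *Mobp* (at most 33.3), *Cldn11* (42.6), *Opalin* (46.9) and *Ermn* (14.7), and for *Aspa* (18.0), an acetylaspartate hydrolase of oligodendrocytes. Over the whole array, 12315 of 18193 named genes had a tested probe set, so falling below 50 was not particular to this list. The difference between these shares was not tested. Of the 14 tested, 3 were higher, namely *Cryab*, a small heat shock protein (log2 change 0.80, limma, adjusted p = 0.00309), *Car2*, a carbonic anhydrase (0.73, adjusted p = 0.00183), and *Tspan2*, a tetraspanin (0.48, adjusted p = 0.00281), of which 1 of 3 probe sets did not pass (0.27, adjusted p = 0.203). *Omg*, a surface glycoprotein that neurons make as well, was lower (-0.35, limma, adjusted p = 0.0107). Higher genes are 21.4% and lower genes 7.14% of the 14 tested, beside 16.2% and 8.26% of all tested probe sets. Of 9 enzymes of myelin lipid synthesis tested, *Fa2h*, a fatty acid hydroxylase, was lower (-0.25, limma, adjusted p = 0.0406, lost in 8 of 14 other settings, and without any 1 of the arrays except luciferase replicate 3) and none was higher. *Ugt8a*, which makes galactocerebroside, did not pass (0.11, limma, adjusted p = 0.484). Of the 9 lipid enzymes 11.1% were lower, beside 8.26% of all tested probe sets.

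Of 14 growth signals of the lineage tested, 6 were higher (42.9%, beside 16.2% of all tested probe sets) and 1 was lower. The difference between the lists was not tested. *Pdgfa*, the ligand of Pdgfra that drives precursor division, had 482, 490.6, 480.2 and 502 on the luciferase arrays, against 665, 586 and 646 on the blank arrays. All luciferase arrays lay below all blank arrays, with a log2 change of -0.37 (limma, adjusted p = 0.00778), and its second probe set gave -0.37 as well (adjusted p = 0.00744). *Pdgfc*, another ligand of the receptor, was higher by 0.62 (limma, adjusted p = 0.00168), with 0.57 for its second probe set (adjusted p = 0.00805). The receptor *Pdgfrb* of pericytes had 83.8, 78.6, 77.8 and 73.2 on the luciferase arrays, against 38.0, 47.8 and 62.1 on the blank arrays, and was higher (log2 change 0.70, limma, adjusted p = 0.00946, and 0.522 to 0.946 in other settings). Blank replicates 5 and 6 lay under 50, and its second probe set, near 50 throughout, did not pass (0.19, adjusted p = 0.212). *Ptch1*, the hedgehog receptor, was higher by 0.42 (limma, adjusted p = 0.00652). *Igf1r*, *Igf1* and *Smo* were higher by 0.47, 0.51 and 0.31 (limma, adjusted p = 0.0292, 0.0416 and 0.0346), calls that were lost in 6, 9 and 9 of 15 other settings, among them leaving out luciferase replicate 3 or 4 or blank replicate 5. Further probe sets did not pass for *Igf1* (0.31 and 0.05, adjusted p = 0.0945 and 0.652), *Smo* (0.11, adjusted p = 0.493) and *Igf1r* (0.07, adjusted p = 0.747), and the third of *Igf1r* was higher (0.68, adjusted p = 0.00452).

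**Figure D5:**
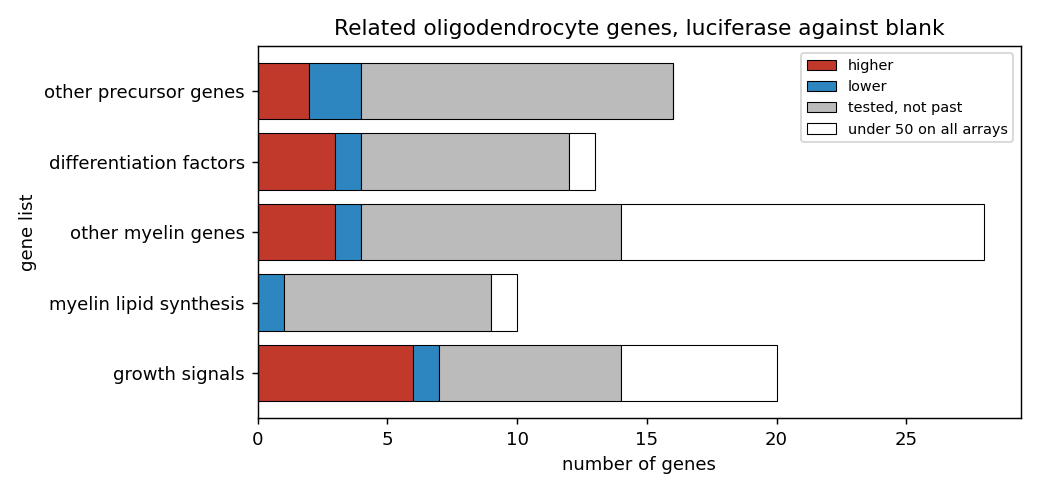
Number of genes in each of the 5 related lists that were higher, lower or not past the adjusted p in luciferase against blank neurons, and of those below 50 on all arrays. Of 14 growth signals tested 6 were higher and 1 was lower, and 14 of 28 myelin genes were below 50 on all arrays. Over the whole array, 12315 of 18193 named genes had a tested probe set.

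Markers of other cell types were read beside these genes. Of 9 astrocyte markers tested 6 were higher, where 16.2% of all tested probe sets were. *Gfap* was at 981 ± 88.8 in luciferase neurons (SD, n = 4) and 435 ± 77.6 in blank neurons (SD, n = 3). *Gja1* lost its call without blank replicate 5 (limma, adjusted p = 0.0652) and *S100b* in 9 of 15 other settings. The summed intensity of the list was 23707 to 26024 on luciferase arrays and 17519 to 19633 on blank arrays. Astrocytes also express *Id4*, *Hes5*, *Cryab*, *Bcan* and *Vcan*, and the part of astrocyte RNA in their rise was not tested. Of 5 pericyte, vascular and meningeal markers tested, *Pdgfrb* was higher and *Dcn* and *Col1a2* were lower. The *Col1a2* call was lost without luciferase replicate 2 or 4 or blank replicate 5 or 6 (limma, highest adjusted p = 0.0848). Its luciferase arrays were all under 50 (36.7 to 48.5, against 51.0 to 61.4 on the blank arrays). It was thus tested only because of the blank group, where it was higher. The summed intensities of the list were 566.2 to 754.9 on luciferase arrays and 985.2 to 1110.5 on blank arrays. *Dcn* made up most of this sum (421 ± 83.8 in luciferase neurons and 835 ± 93.5 in blank neurons, SD, n = 4 and 3), and the other 4 markers summed to 205.5 to 223.6 on luciferase arrays and 170.9 to 224.9 on blank arrays. The cultures were labelled as neurons, and 9 of 9 neuron markers reached the limit, with summed intensities of 35657 to 37258 on luciferase arrays and 35012 to 37715 on blank arrays. Of these, the neurofilament gene *Nefl* was lower (log2 change -0.80) and *Slc17a7* was higher (0.39, lost in 8 of 15 other settings, among them without any 1 luciferase array or blank replicate 5 or 6). Of 10 microglia markers 7 were below the limit on all arrays, and none of the other 3 passed. Of the Schwann cell markers, 2 were tested and *Egr2*, also an activity gene of neurons, was lower (log2 change -0.53, limma, adjusted p = 0.0251, and at most 0.0614 without luciferase replicate 1, 2 or 3 or blank replicate 5 or 7, where it was lost). None of 5 genes of dividing cells and progenitors passed.

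All these changes are relative to how the arrays were scaled. Median intensities over the tested probe sets were 237.4 to 241.4 on luciferase arrays and 215.5 to 235.1 on blank arrays, and the median log2 change of all probe sets was 0.06 as deposited, 0.01 after quantile normalization and -0.04 with each array centred. Of all called probe sets, 66.2% were higher as deposited, 51.5% after quantile normalization and 37.3% with centred arrays. Both called *Mbp* probe sets and the *Sox10* call kept their direction and passed under both scalings, and *Mag* kept its direction but did not pass after quantile normalization (limma, adjusted p = 0.0717).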

How the data were processed

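Affymetrix expression arrays were hybridised with total RNA of mouse primary cortical neurons, 4 arrays for luciferase and 3 for blank. The intensity values deposited by the authors had been normalized with RMA (version not given in the sources used here). They ran from 4.69 to 23763 on a linear scale. Labels and methods differ on the reagent for RNA extraction. In the deposited table the blank columns sit 1 row low. Moved up by 1 row, they correlated with the luciferase columns at r = 0.995 (log2 group means over 45034 probe sets), against at most 0.421 for other moves, and this move was made. The table held 0 columns of other samples.

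Control probe sets (64), those with _x in the name (2441) and those under 50 on all arrays were left out. The remaining 22748 were log2 transformed and fitted by lmFit and eBayes of limma 3.58.1 (R 4.3.3) for luciferase minus blank without covariates. P-values were adjusted over all 22748 by Benjamini-Hochberg, with a threshold of 0.05. The 95% intervals come from the same fit. The calculations were tested on simulated data. Gene names come from the array annotation, and some genes are not reported here. In the related and marker lists the probe set with the highest mean level stood for a gene.

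The members, lists and tests were chosen with earlier results of these data known. The text names every member, up to 4 genes past the adjusted p in each direction of each related list with *Ugt8a*, *Pdgfa* and *Myrf* whatever their values, and up to 3 such markers a list. *Gpr17*, *Bcas1*, *Mki67*, *Top2a*, *Lum*, *Rgs5*, *Trim35*, *Rps24*, *Lin7b*, *Rarb*, *Ptch1*, *Smo* and the non-member genes below 50 were named after their values were seen. Alternatives were other filters on level, quantile normalization, centred arrays, a trended and robust variance, array weights, _x probe sets kept and each array left out. The number of arrays limits the precision.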

Additional observations from a re-analysis of the deposited data

Results flagged for a closer look

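Among 47 tested probe sets checked, 5 had 1 luciferase array standing apart from the other 3 by more than Dixon's 95% value, and none of the 17 member probe sets did. In all 5 it was replicate 4. *Gpr17* stood at 115.2 on it (304.4 to 340.5 on the others), *Bcas1* at 178.8 (446.2 to 495.0), *Bcan* at 679.0 (810.6 to 833.2), *Ugt8a*, the galactocerebroside enzyme, at 100.5 (117.9 to 121.0) and *Slc17a7*, the vesicular glutamate transporter of excitatory neurons, at 1018 (1094 to 1098). Chance alone picks out about 1 in 20 groups, and 5.47% of all tested probe sets had such an array among the luciferase samples. *Gpr17* and *Bcas1* were named after they were seen to stand low on replicate 4, so their flags were fixed by that choice. The count of 5 among 47 therefore cannot be set against this share. Dixon's rule sets the gap against the range of the luciferase arrays, so a probe set without a flag can still stand low. *Mbp* 1433532_a_at had no flag and stood on replicate 4 at 35.7% of the other luciferase arrays.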

How the results depend on the processing

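Of the 4 member calls, *Mbp* 1425263_a_at held in all 15 alternatives. With single arrays left out, 1 to 2 member probe sets were higher and 0 to 2 lower. The lower count was 1 with a limit of 100, after quantile normalization and with a trended, robust variance, and 0 with no filter, which tests more probe sets. Array weights added *Cnp* 1418980_a_at (0.35, limma, adjusted p = 0.0253). Over all tested probe sets, 6278 were higher and 3272 lower with array weights, 2069 and 3472 with centred arrays, and 2022 to 4879 and 1158 to 2176 with single arrays left out. The related lists gave 24 higher genes with array weights, and 10 to 18 higher and 3 to 6 lower with single arrays left out. The precursor mean was -0.15 with centred arrays.

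Estimates of probe sets that did not pass changed sign near 0. With centred arrays they were -0.06 for *Olig1*, -0.043 and -0.029 for *Pdgfra* 1421916_at and 1421917_at and -0.011 for *Cnp* 1449296_a_at. After quantile normalization they were -0.031 for *Pdgfra* 1421916_at and -0.001 for *Cnp* 1449296_a_at, and with array weights -0.245 for *Pdgfra* 1421916_at. With single arrays left out they ranged from -0.023 to 0.07 for *Olig1*, from -0.27 to 0.24 for *Pdgfra* 1421916_at, from -0.15 to 0.08 and from -0.16 to 0.0 for *Cspg4* 1423341_at and 1450944_at, and from -0.39 to 0.038 and from -0.43 to 0.11 for *Mbp* 1419646_a_at and 1433532_a_at, with the top of both *Mbp* ranges reached without luciferase replicate 4. The cause was not tested. Low intensity limits *Mag*, *Matn4*, *Col1a2* and *Sox10* 1425369_a_at, which lie near 50. No paired analysis was possible because the groups share no replicate numbers.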
